A study of Mus musculus with 2 samples.

Results

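A set of epithelial cells was chosen from single-cell RNA counts of the mouse submandibular gland by the genes Cldn4, Cxadr, F3, Mast4 and Csn3, and 103 of 4086 kept cells belonged to it (2.52%). A cell belonged when at least 3 of these 5 genes were detected, meaning that each had at least 1 UMI. UMIs are molecular tags that stand for single RNA molecules caught in a droplet. The rule also left out cells with 3 or more UMIs of Krt14 plus Krt17, of Acta2 or of Wfdc18, cells with any UMI of Ascl3, Ptprc or Pecam1, cells with 2% or more of their UMIs from Smgc, and cells with 8% or more from the 14 Klk1 and Klk1b kallikrein genes. Kept cells had at least 200 genes and under 20% mitochondrial UMIs. The set held 80 of 2423 kept cells in the KO library, which is 3.30% (95% exact binomial interval 2.63 to 4.09%). It held 23 of 1663 in the WT library, which is 1.38% (0.879 to 2.07%). Measured counts of these very genes chose the cells, so their levels are given as a description.

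There was 1 library labelled p63 KO and 1 labelled p63 WT. Both came from adult mice of 12 weeks, and whole salivary glands were dissociated and sequenced with the 10x Genomics 3' v2 chemistry. The labels also name the source as primary epithelial progenitor cells, but the kept cells included endothelial, immune and stromal clusters. The sources used here do not give how p63 was removed, in which cells, or whether glands were pooled. Since each genotype had a single library, KO and WT were compared without any test, cells were not treated as replicates, and every interval covers counting error only. Kept cells had a median of 2088 UMIs in KO and 3406 in WT, and the shallowest kept cell had 1077 UMIs in KO and 2175 in WT.

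Cldn4 encodes claudin 4, a tight junction protein that limits passage between epithelial cells. Cxadr encodes the coxsackievirus and adenovirus receptor, an adhesion protein of the same junctions. F3 encodes tissue factor, the membrane protein that starts blood clotting when plasma reaches it and that many lining epithelia carry. Mast4 encodes a microtubule-associated kinase, Csn3 encodes kappa-casein, a milk protein, and Ctsl encodes cathepsin L, a lysosomal protease. Salivary ducts lead from acini through intercalated, granular and striated segments to excretory ducts, and they take up sodium chloride from saliva as it passes. Basal cells, which express p63 and keratins 5, 14 and 15, lie along the larger ducts and serve as progenitors.

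The name under which the cells were proposed, Cldn4, F3 and Csn3 duct cells, names Csn3, which was hardly detected in them. A single Csn3 UMI was present in 1 of the 80 KO cells and none in the 23 WT cells (a count of 0 allows up to 13% of cells with a UMI, and says nothing of cells that express the gene without one). Csn3 was in other cells: 30 kept KO cells held 687 Csn3 UMIs, 311 of them in 1 cell, and 3 kept WT cells held 25. Of those 30 KO cells, 18 lay in a cluster led by the contractile genes Tpm2, Myl9 and Cnn1. At least 3 of the 5 marker genes were present in 16 of the 30, and the exclusion clauses took out 15 of these. Without Csn3 in the rule, the same numbers of 80 and 23 cells were chosen. The set is therefore called Cldn4, Cxadr and F3 cells here.

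Promoters of Cldn4 and F3 are shown because they are the genes of the rule whose windows were found to hold the letters of one short motif more than once, a choice made after the matches were seen. The sequences run 5′ to 3′ on the gene's own strand, from 250 bases before to 50 bases after the annotated start, and come from RefSeq on GRCm38.p6. Capitals mark TGANTCA, the core bound by AP-1 factors such as FOS and JUN, searched on both strands, where it reads the same. The Cldn4 window is chr5:134946885-134947184 on the minus strand and the F3 window is chr3:121723287-121723586 on the plus strand.
Cldn4: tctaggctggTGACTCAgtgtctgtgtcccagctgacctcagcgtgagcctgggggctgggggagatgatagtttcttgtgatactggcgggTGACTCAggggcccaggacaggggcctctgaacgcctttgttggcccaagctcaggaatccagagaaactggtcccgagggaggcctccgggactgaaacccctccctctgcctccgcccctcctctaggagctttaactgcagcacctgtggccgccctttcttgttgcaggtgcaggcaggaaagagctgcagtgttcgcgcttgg
F3: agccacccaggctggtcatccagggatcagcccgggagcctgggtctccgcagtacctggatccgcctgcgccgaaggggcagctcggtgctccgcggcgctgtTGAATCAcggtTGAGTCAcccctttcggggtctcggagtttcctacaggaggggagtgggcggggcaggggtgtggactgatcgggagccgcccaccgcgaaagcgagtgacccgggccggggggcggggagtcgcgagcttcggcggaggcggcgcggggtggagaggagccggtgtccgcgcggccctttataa
Each window held 2 matches. Of the rule's marker genes, Cldn4, F3 and Mast4 were searched, and Cxadr and Csn3 were not searched. Of 32851 promoter windows of 300 bases, 7.81% held at least 1 match and 0.460% held at least 2. Mast4 had 0 matches, and outside the rule Ctsl had 0, Sprr1a 2 and Foxi1 0. A match is a string of letters and does not show that a factor binds there.

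The rule's exclusion clauses set which library had more of these cells. At least 3 of the 5 marker genes were detected in 281 KO cells (11.6% of kept cells) and in 355 WT cells (21.3%), so before exclusion the WT share was the larger. The clauses removed 201 of the KO and 332 of the WT cells. The Krt14 plus Krt17 clause, which takes out basal cells, applied to 76 KO and 284 WT cells, and it alone removed 44 and 215. The Wfdc18 clause, which takes out cells with that secreted protein of the whey acidic protein family, applied to 121 KO and 80 WT cells, and it alone removed 81 and 28. The higher share in KO was thus a property of the complete rule and did not hold for the markers alone. It also narrowed with the filters: the shares were 1.80% in KO and 1.59% in WT under a stricter cell filter (500 genes, a mitochondrial share below 10%), and 1.73% in KO and 1.26% in WT when each cell was first thinned to 1000 UMIs.

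Cldn4 was detected in 76 of the 80 KO cells and in 21 of the 23 WT cells, with a median of 3 UMIs per cell in both and maxima of 17 and 10. Its level was 1280 CPM in the KO cells (counting interval 1132 to 1441) and 1358 CPM in the WT cells (1105 to 1652), where CPM are a gene's UMIs scaled to 1000000 UMIs of the set. Cxadr stood at 600 CPM in KO and 652 CPM in WT, with 71 and 21 cells positive. F3 stood at 467 CPM in KO and 557 CPM in WT, in 55 and 18 cells, with at most 7 and 5 UMIs in a cell. Mast4 stood at 472 CPM in KO and 435 CPM in WT, in 55 and 19 cells. These 4 genes had overlapping counting intervals between the libraries, in cells chosen by their detection.

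Most KO cells of the set carried exactly 3 of the markers. Among KO cells, 25 carried Cldn4, Cxadr and Mast4, 25 carried Cldn4, F3 and Cxadr, and 16 carried all of Cldn4, F3, Cxadr and Mast4. The trio of Cldn4, F3 and Mast4 was in 9 KO cells, F3, Cxadr and Mast4 in 4, and all 5 genes in 1. Among WT cells, 10 carried all of Cldn4, F3, Cxadr and Mast4, 5 carried Cldn4, Cxadr and Mast4, and 4 carried Cldn4, F3 and Cxadr. The remaining 4 WT cells were split evenly between the trios that lack Cxadr or Cldn4. At the threshold, 63 KO and 13 WT cells had exactly 3 markers, and 107 KO and 31 WT cells that met every other clause had exactly 2. KO cells just inside had 1276 CPM of Cldn4 and 401 CPM of F3, and KO cells just outside had 773 and 157 CPM. WT cells just inside had 1042 CPM of Cldn4 and 284 CPM of F3, and WT cells just outside had 624 and 92.7 CPM.

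Detection depends on depth, so each kept cell was also thinned at random to 1000 UMIs. Cldn4 was then detected in 76.3% of KO and 69.6% of WT cells of the set, against 3.57% of KO and 4.29% of WT immune cells. Immune cells, taken as those with Ptprc and without Pecam1, should lack Cldn4 and gauge free RNA in the droplets. Without thinning, Cldn4 was in 95% of KO cells of the set, at a median depth of 2350 UMIs, and in 5% of KO immune cells, at 1494 UMIs. It was in 91.3% of WT cells of the set, at 2948 UMIs, and in 22.9% of WT immune cells, at 2752 UMIs. F3 after thinning was in 36.3% of KO and 52.2% of WT cells of the set, and in 1.43% of KO and 2.86% of WT immune cells. The rule chose cells by detection of these genes and left out cells with Ptprc, so the difference from immune cells was set by the choice and is given as a description.

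**Figure D1:**
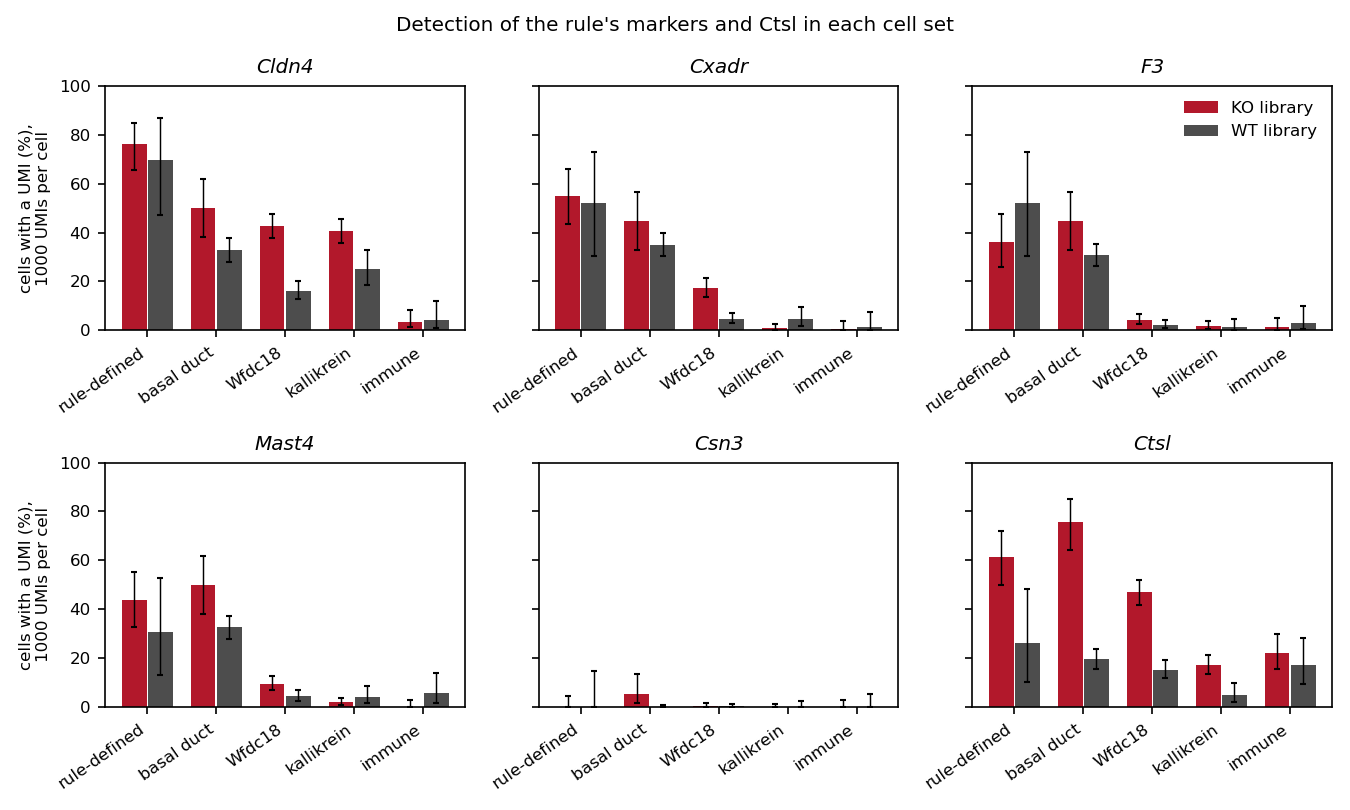
Share of cells with a UMI (vertical axis, percent, each cell thinned to 1000 UMIs) of the 5 rule genes and Ctsl in the rule-defined cells, 3 other duct sets and immune cells; red bars are KO, grey bars are WT, and lines are 95% exact binomial intervals. Cldn4 reached 76.3% in KO and 69.6% in WT rule-defined cells, whereas Csn3 was at 0% in both.

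The cells of the set were checked for other cell types. Of 12 myoepithelial genes, 1 was detected in the KO cells (6 UMIs) and 2 in the WT cells (5 UMIs), with Myh11, Cnn1 and Tagln at 0. Of 11 endothelial genes, 3 were detected in each, with 5 UMIs in KO and 3 in WT. Macrophage genes gave 4 UMIs in KO and 11 in WT over 10 genes, and lymphocyte genes 2 and 4 UMIs over 12 genes. Fibroblast genes were at 0 except Dcn, so the collagens Col1a1, Col1a2 and Col3a1 were at 0 in both libraries. Haemoglobin genes gave 141 UMIs in KO and 122 in WT, or 666 and 1657 CPM. The doublet caller scrublet marked 6 KO and 0 WT cells, none of them in the set, so few doublets were called at all. The libraries shared 11 barcodes, and 1 KO cell of the set was among them.

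Quality measures differed between the libraries within the set. The median mitochondrial share was 12.8% in KO cells (range 3.12 to 19.8%) and 5.4% in WT cells (3.17 to 15.9%). The median share of ribosomal protein UMIs was 19.2% in KO and 28.1% in WT. Their part in the KO over WT differences below was not tested, and with 1 library each the genotype and the library cannot be told apart.

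Trp63 was detected in 0 of 80 KO cells of the set and in 1 of 23 WT cells. The count of 0 allows up to 3.75% of cells with a UMI, which sets no limit on the share that express the gene. Among Krt14 or Krt17 basal duct cells, defined below, 2 of 74 KO and 77 of 391 WT cells held Trp63. Fst, which encodes the activin-binding protein follistatin, had 0 UMIs in the KO cells and 2 in the WT cells of the set. Neither gene reached a level at which the set could be compared between the genotypes.

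The KO and WT cells of the set lay in different clusters. Kept cells of both libraries were clustered without the genes of the rule, which gave 22 clusters. Cluster 5 held 42 KO cells of the set and 2 WT cells, and its leading genes were Sbpl, Ctsl, Myc, Kcnk3 and Id3; Sbpl itself had 0 UMIs in the 42 KO cells. Cluster 9, led by the transcription factor gene Foxi1 and by Aldh1a3, Itih5, Hepacam2 and Tspan1, held 24 KO cells and 1 WT cell. Cluster 11, led by Rgs5, Hepacam2 and Foxi1, held 7 KO cells and 1 WT cell. Cluster 2, led by Ptn, Krt15, Ucma, Smoc2, Lgals7 and Krt5, held 16 of the 23 WT cells and 0 of the KO cells.

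Those clusters were themselves mostly of 1 library. Cluster 5 had 282 KO and 7 WT cells, cluster 9 had 186 KO and 24 WT cells, and cluster 2 had 2 KO and 385 WT cells. Cluster 5 also held 66 of the 74 KO basal duct cells and 81 KO cells of the Wfdc18 set, so it was not a cluster of Cldn4, Cxadr and F3 cells alone. The largest cluster held 52.5% of the KO and 69.6% of the WT cells of the set, and at Leiden resolutions of 0.5 and 2, chosen after seeing the data, it held 46.3% and 36.3% of KO, and 78.3% and 69.6% of WT cells. A cluster mostly of 1 library may be that library and not a cell type.

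**Figure D2:**
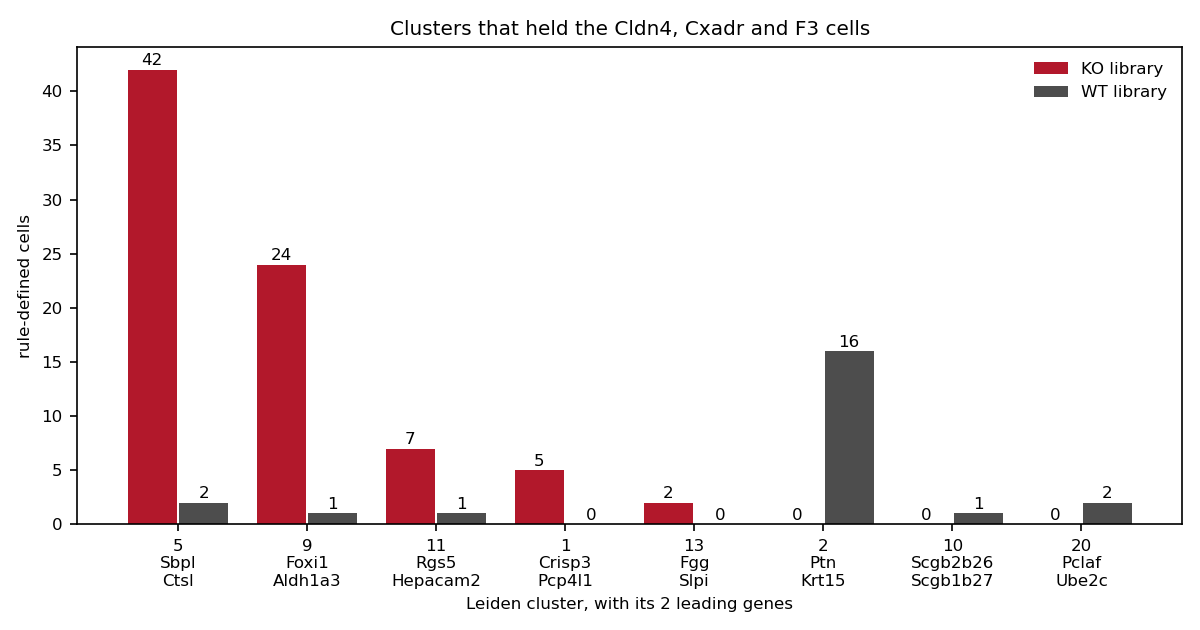
Number of rule-defined cells (vertical axis) in each Leiden cluster that held any (horizontal axis, cluster number and its 2 leading genes); red bars are KO, grey bars are WT. KO cells lay mostly in clusters 5 (42 cells) and 9 (24 cells), and WT cells mostly in cluster 2 (16 cells).

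The KO cells of clusters 5 and 9 differed in named genes, given as a description since the clusters were made from these genes. Of 306 genes with at least 50 UMIs in both together, 20 were higher and 10 lower in cluster 5 by an interval wholly beyond 2-fold, a size rule that stands in for a test throughout. Clu, which encodes the secreted chaperone clusterin, had 94 UMIs in the 42 cells of cluster 5 and 1 in the 24 cells of cluster 9. Foxq1, a forkhead transcription factor gene, had 77 and 2 UMIs, and Fosb and Maff, which encode leucine zipper transcription factors, had 97 and 4, and 125 and 11. Ctsl had 278 UMIs in cluster 5 and 26 in cluster 9, or 2493 and 504 CPM. The cornified envelope gene Sprr1a had 44 UMIs in 15 cells of cluster 5 and 1 UMI in cluster 9.

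Slc12a2, S100a6 and Anxa1 were among the genes that passed the size rule as lower in cluster 5. Slc12a2, the sodium, potassium and chloride cotransporter gene, had 12 UMIs in cluster 5 and 68 in cluster 9, which was 12.3-fold lower in cluster 5 (6.58 to 24.9). S100a6, a calcium-binding protein gene, had 62 and 245 UMIs, and Anxa1, which encodes the membrane-binding annexin A1, had 99 and 183. The next genes had fewer than 50 UMIs in both clusters together, so the size rule was not applied to them. Foxi1 had 4 UMIs in 3 of 42 cells of cluster 5 and 29 UMIs in 16 of 24 cells of cluster 9, at 35.9 and 563 CPM. Hepacam2 and Aldh1a3 were at 0 in cluster 5 and had 22 and 14 UMIs in cluster 9. The sodium channel subunit gene Scnn1b had 6 and 16 UMIs, and the proton pump subunit gene Atp6v0d2 had 10 and 16. Foxi1 and proton pump subunits are known for ionocytes, but Ascl3, the other regulator usually named with them, was at 0 because the rule required it.

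The 16 WT cells of cluster 2 had the keratins of basal cells that the rule did not cover. Krt15 had 0 UMIs in the KO cells of clusters 5, 9 and 11, and 38 UMIs in 10 of these WT cells (755 CPM). Krt5 had 1 UMI in KO cluster 5 and 8 UMIs in 8 of these WT cells. Krt14, which the rule limited, had 6 UMIs in KO cluster 5 and 4 in WT cluster 2. Ptn, which encodes the growth factor pleiotrophin, had 0 UMIs in the KO cells and 85 UMIs in 14 of the 16 WT cells. Sprr1a stood at 395 CPM in KO cluster 5 and 298 CPM in WT cluster 2, and Krt7 at 439 CPM in KO cluster 5 and 1232 CPM in WT cluster 2. Ly6d, a surface protein gene of stratified epithelia, stood at 475 and 446 CPM in KO clusters 5 and 9, and at 1808 CPM in WT cluster 2.

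**Figure D3:**
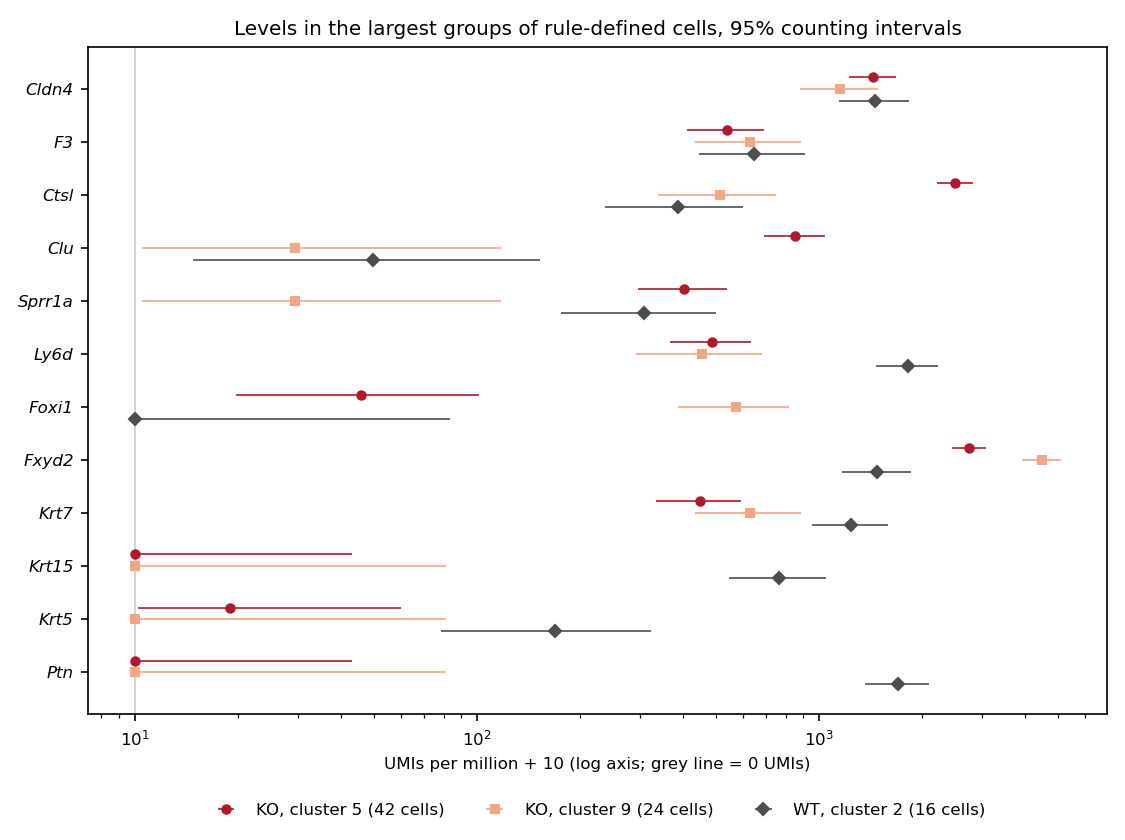
Levels (horizontal axis, CPM plus 10, log axis) of 12 genes in the rule-defined KO cells of clusters 5 and 9 and the WT cells of cluster 2; points are summed levels and lines are 95% counting intervals. Cldn4 and F3 lie close together in all 3 groups, Foxi1 stands out in cluster 9 (563 CPM), and Krt15 and Ptn were at 0 in both KO groups.

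The expression profile of the WT cells was most like that of the WT basal duct set. Pearson's r of log levels across 1343 genes was 0.918 between WT cells of the set and the WT basal duct set, and 0.792 between KO and WT cells of the set. For the KO cells, r was 0.851 with the KO basal duct set, 0.837 with the KO kallikrein set and 0.805 with the KO Wfdc18 set. With the WT basal duct set it was 0.809. Sets of fewer cells give noisier profiles, and the part of set size in r was not tested. These are correlations across genes, which are not independent replicates, and sets of 1 library share its chemistry and free RNA. The basal duct set here means cells with 3 or more UMIs of Krt14 plus Krt17 (74 KO and 391 WT cells). The Wfdc18 set means cells with 3 or more UMIs of Wfdc18 and few basal keratins (391 KO and 419 WT), and the kallikrein set means cells with 8% or more kallikrein UMIs (379 KO and 147 WT).

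Between KO and WT cells of the set, 17 of 696 genes with at least 50 UMIs passed the size rule as higher in KO (2.44%) and 14 as lower (2.01%). Since KO cells came mostly from clusters 5 and 9 and WT cells mostly from cluster 2, these ratios set different clusters against each other. The higher genes included secreted defence and stress genes and the junction gene Cldn3. The lower genes included the basal gene Ptn, the matrix gene Dcn and several saliva proteins. The split moved with the scaling: TMM scaling gave 31 higher and 12 lower, with the median log2 ratio of all tested genes at 0.18 in place of -0.04, and a total without mitochondrial, Smgc and kallikrein UMIs gave 23 and 13.

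Lcn2, which encodes the iron-siderophore binding protein lipocalin 2, had 54 UMIs in 21 KO cells and 1 UMI in the WT cells, 18.8-fold higher in KO (interval 3.23 to 755). It was also higher in the other kept KO cells, by 23.5-fold, and in the basal duct set, by 24.7-fold, while immune cells had 15 UMIs in KO and 21 in WT. Clu had 114 UMIs in 32 KO cells and 6 in 5 WT cells, 6.61-fold higher (2.94 to 18.4), with 2.31-fold in the basal duct set and 1.37-fold in the other kept cells. Anxa1 had 318 UMIs in KO and 18 in WT, 6.14-fold higher (3.82 to 10.5), against 2.05-fold in the other kept cells. Cldn3, a claudin that seals junctions, had 95 and 7 UMIs, 4.72-fold higher (2.2 to 12.1), against 2.0-fold in the other kept cells. Ctsl had 321 and 24 UMIs, 4.65-fold higher (3.07 to 7.37), against 4.03-fold in the other kept cells and 8.36-fold in the basal duct set. In the other kept cells these ratios thus all lay above 1, and those of Lcn2 and Ctsl lay within the interval found in the set. Of the 9 lysosome and cathepsin genes with 50 UMIs, Ctsl alone passed the size rule, and Ctsb and Ctsd, which encode other cathepsins, stood at 288 and 345 CPM in KO and 217 and 163 CPM in WT.

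Metallothioneins, which bind zinc and copper, were higher in the KO cells. Mt1 had a median of 17 UMIs per KO cell and 5 per WT cell, at 8906 and 2743 CPM, 3.25-fold higher (2.81 to 3.77). Mt2 was 5.10-fold higher (3.68 to 7.25), with medians of 4 and 1 UMIs. In the other kept cells the ratios were 4.02 for Mt1 and 4.66 for Mt2, so the difference was not limited to the set. Txnip, a thioredoxin-binding protein gene, had 58 and 2 UMIs. Mt1, Mt2 and Txnip were the higher genes among 11 glucocorticoid and nutrient stress genes with enough UMIs for the size rule. None of that list was lower. The heat shock gene Hspa1b was 3.59-fold higher (2.14 to 6.42). Among 29 immediate early and heat shock genes with enough UMIs, Hspa1b alone was higher and none was lower. The median log2 ratio of that list was 0.04, beside 0.05 over all measured genes, so the list as a whole was not shifted. The kallikrein-duct secretory gene Crisp3 had 641 UMIs in KO and 54 in WT, 4.13-fold higher (3.12 to 5.56), and 4.16-fold in the other kept cells. Serinc3, a membrane protein gene, had 91 and 3 UMIs, and H1f0, a linker histone gene, had 113 and 10.

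Ptn had 0 UMIs in the 80 KO cells and 88 UMIs in 15 of the 23 WT cells. By its counting interval it was at least 67.2-fold lower in KO. In the basal duct set Ptn had 2 UMIs in KO and 1400 in WT. Dcn, which encodes the small proteoglycan decorin, had 15 and 129 UMIs, 24.7-fold lower in KO (14.5 to 45.5), and 7.51-fold lower in the basal duct set. Collagen genes were at 0 in both libraries of the set, as given above, and Dcn was in 15 of the 23 WT cells. Sfn, which encodes stratifin, a 14-3-3 protein of stratified epithelia, had 34 and 69 UMIs, 5.84-fold lower (3.82 to 9.08). Krt15 had 0 and 38 UMIs, which is under the 50 that the size rule asks for. Of 12 measured genes of a basal epithelial list, 4 with 50 UMIs, Sfn and Ptn were lower and none was higher, with a median log2 ratio of -0.86 beside 0.05 over all genes with at least 10 UMIs.

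Saliva proteins of acinar cells were lower in the KO cells of the set, and they were lower in immune cells too. Mucl2, a mucin-like secreted protein gene, had 289 UMIs in KO and 874 in WT, but 503 of the WT UMIs came from 1 cell. In WT cluster 2, which did not include that cell, it stood at 5683 CPM, against 1354 CPM in KO cluster 5. Scgb1b27, a secretoglobin gene, was 8.63-fold lower in KO in the set, with 104 of its 180 WT UMIs in 1 cell, and 23.1-fold lower in immune cells. Car6, the secreted carbonic anhydrase gene, had 14 and 39 UMIs, with 27 of the WT UMIs in 1 cell. Scgb2b27 was 9.24-fold lower in the set, with 53 of its 106 WT UMIs in 1 cell, and 30.6-fold lower in immune cells. Tubb5, a tubulin gene, had 14 and 40 UMIs, Esp18 had 46 and 105, and the translation factor gene Eef1g had 55 and 93. The immune-cell level, which gauges free RNA, thus moved with these secretory genes, and its part in the difference was not tested.

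**Figure D4:**
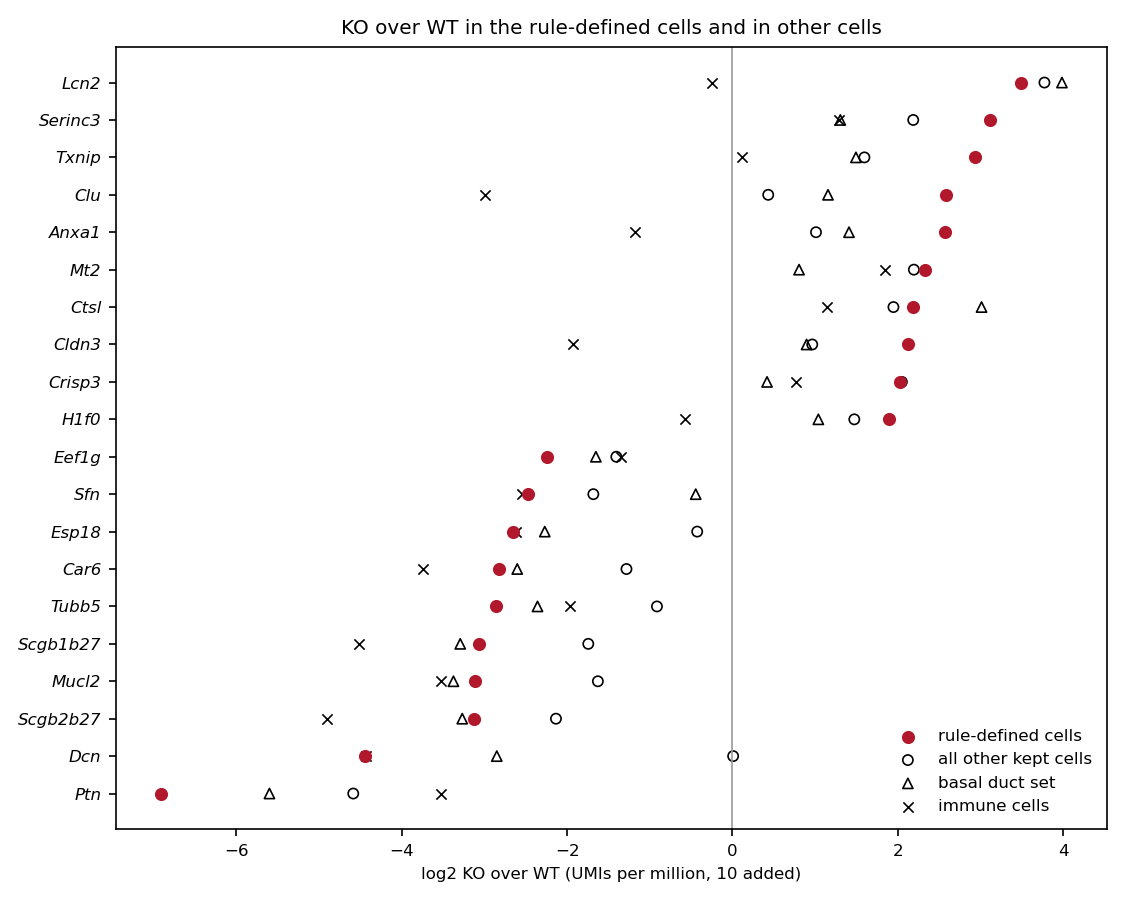
KO over WT difference (horizontal axis, log2 of CPM with 10 CPM added) of the 10 highest and 10 lowest genes past the size rule in the rule-defined cells (red), with the same genes in all other kept cells (circles), the basal duct set (triangles) and immune cells (crosses). Lcn2 was at 3.49 in the rule-defined cells and 3.77 in the other kept cells, and the value of Ptn, at 0 UMIs in KO, depends on the 10 CPM added.

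Set against the rest of the KO library, 4 genes of cell junctions were higher in the KO cells of the set and most junction genes did not pass the size rule. Of 8352 genes, 35 were higher (0.419%) and 149 lower (1.78%). Of 26 measured genes of the claudin and tight junction list, 24 of which had the 50 UMIs needed to pass, Ocln and Crb3 were higher and the endothelial gene Esam was lower, with a median of 0.27 beside -0.11 over all genes with at least 10 UMIs. Ocln, which encodes occludin, had 109 CPM in the set and 32.9 CPM in other KO cells. Crb3, a polarity protein gene, was 3.16-fold higher (2.2 to 4.44). Of 21 measured adherens junction and desmosome genes, 20 with 50 UMIs, the desmocollins Dsc2 and Dsc3 were higher, by 3.85-fold (2.41 to 5.90) and 3.48-fold (2.30 to 5.09), and none was lower. Of 16 measured genes of the tissue factor, coagulation and plasminogen list, 12 with 50 UMIs, 1 was higher, namely S100a10, which encodes a partner of annexin A2 and was 2.43-fold higher (2.01 to 2.91). The other kept cells include blood, vessel and stromal cells as well as epithelium. Against the KO basal duct set none of these 4 junction genes passed, where 3 and 8 genes of those lists had 50 UMIs. Of the 4, Dsc3 alone passed against the KO Wfdc18 set and Crb3 alone against the KO kallikrein set. Dsc3 was also among the leading genes of cluster 9, which held 24 KO cells of the set.

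The genes with the highest ratios against the other KO cells included Sprr1a, Sectm1b, Ly6d and Foxi1. Sprr1a had 46 UMIs in 17 KO cells of the set (217 CPM) and 20.6 CPM in other KO cells, 10.6-fold higher (7.39 to 14.8). Sectm1b, a secreted and transmembrane protein gene, was 9.98-fold higher (5.72 to 16.7), and Ly6d 4.2-fold (3.28 to 5.32). Gadd45a, a growth arrest and DNA damage response gene, was 3.59-fold higher (2.83 to 4.51), and Tgif1, a repressor of TGF-beta signalling, was 2.61-fold higher (2.2 to 3.09). Foxi1 was 4.32-fold higher (3.07 to 5.96), detected in 24 of 80 cells of the set. Igsf3, Trp53i11, Tmem61 and Zbtb10 were higher by 4.94-, 4.19-, 4.79- and 3.71-fold. Iapp, the amylin gene, had 23 UMIs in only 3 cells of the set, 17 of them in 1 cell.

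Many of the lower genes are known from other cell types. The rule left out cells with Ptprc or Pecam1 and cells with 2% or more Smgc UMIs, and the other KO cells include them. Lower immune, vessel and acinar genes thus follow from the choice of cells and are given as a description. The chemokine genes Ccl4, Cxcl2 and Ccl3 had 3, 4 and 3 UMIs in the set and were 115-, 47.9- and 44.0-fold lower. The fat cell gene Cfd had 2 UMIs, and the acinar genes Car6, Prol1, Pip, Scgb1b27, Mucl2 and Scgb2b26 were 27.9- to 47.5-fold lower. Within the immediate early and heat shock list, 3 of 31 genes were lower, Fos, Hspa1a and Ccn1, and none was higher. Fos stood at 1997 CPM in the set and 4450 CPM in other KO cells. Of 28 measured glucocorticoid and nutrient stress genes, Gadd45a was higher and Tsc22d3, Txnip and Ddit4 were lower.

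Against the KO basal duct set, 3 duct ion transport genes were higher in the KO cells of the set, and 4 genes of the immediate early and heat shock list were lower. Of 1228 genes, 25 were higher (2.04%) and 34 lower (2.77%), and a total without mitochondrial, Smgc and kallikrein UMIs gave 33 and 29. The higher calls were mostly lost under 2 alternatives: 0 were higher and 12 lower with at least 4 markers, and 1 was higher and 6 lower under the stricter cell filter. Of 22 measured duct ion transport genes, 6 had 50 UMIs, and 3 were higher and none was lower. Slc12a2 had 519 CPM in the set and 81.8 CPM in basal duct cells, 6.35-fold higher (4.05 to 10.3). Fxyd2, which encodes a subunit of the sodium pump, was 3.1-fold higher (2.71 to 3.54). Cldn3 was 2.99-fold higher (2.07 to 4.38), Crisp3 5.10-fold, Serpinb6b, a protease inhibitor gene, 5.64-fold, and Ddit3, a stress transcription factor gene, 4.85-fold. Cluster 5 held 66 of the 74 KO basal duct cells. The set's KO cells there had 108 CPM of Slc12a2, 897 of Crisp3, 278 of Cldn3 and 2735 of Fxyd2. Those of cluster 9 had 1319, 2968, 504 and 4462 CPM. Basal duct cells had 593 CPM of Crisp3. Ctsl differed by less than the size rule asks, at 1516 CPM in the set and 2049 CPM in basal duct cells.

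Of 31 measured immediate early and heat shock genes, 29 with 50 UMIs, the heat shock genes Hspa1a, Hspb1 and Dnajb1 and the immediate early gene Ccn1 were lower in the set than in the KO basal duct set and none was higher, with a median of -0.76 beside -0.08 over all genes. Hspb1, a small heat shock protein gene, had 3254 and 8023 CPM, and Ccn1, a matrix signalling gene, 236 and 1773 CPM. Id3, a helix-loop-helix inhibitor gene, was 3.16-fold lower (2.61 to 3.86), Sfn 4.74-fold lower (3.29 to 7.01), and Cryab, another small heat shock protein gene, 19.5-fold lower (9.72 to 45.7). Several of the largest differences rested on single cells of the basal duct set. Cfd had 2 UMIs in the set and 1377 in basal duct cells, 1375 of them in 1 cell, and Gpx3, Fabp4 and Lpl had 89 of 91, 67 of 70 and 55 of 56 UMIs in 1 cell each. The myeloid gene Lyz2 had 0 UMIs in the set and 509 in 5 basal duct cells.

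Against the KO Wfdc18 set, several striated and excretory duct genes were higher and acinar secretory genes lower. The rule limited Smgc and kallikrein UMIs in the set, whereas the Wfdc18 set had no such limit. The lower acinar genes are therefore given as a description. Of 4262 genes, 55 were higher (1.29%) and 72 lower (1.69%). TMM scaling gave 32 and 96, and the total without mitochondrial, Smgc and kallikrein UMIs 71 and 66. The stricter cell filter gave 66 and 43. Of 12 measured striated and excretory duct genes, 7 had 50 UMIs, and 5 were higher and none lower, with a median of 1.66 beside 0.00 over all genes. Among them, Foxi1 was 17.7-fold higher (10.3 to 31.5), Scnn1b 6.83-fold (3.92 to 12), Atp6v0d2 6.33-fold (4.06 to 9.81) and Fxyd2 4.53-fold (4.14 to 4.96). Levels of these 4 genes differed within the set. They stood at 35.9, 53.8, 89.7 and 2735 CPM in its KO cells of cluster 5. In those of cluster 9 they stood at 563, 310, 310 and 4462 CPM. S100a6 stood at 1657 CPM in the set and 154 CPM in the Wfdc18 set, 10.8-fold higher (9.17 to 12.6). Id3 was 10.5-fold higher (8.09 to 13.7), with 38 of its 131 UMIs in 1 cell, and Itih5, Tspan1 and Dsc3 were 13.6-, 9.43- and 9.63-fold higher. Itih5 and Tspan1 had 2 and 1 UMIs in the set's KO cells of cluster 5, and 20 and 29 in those of cluster 9. Of 28 glucocorticoid and nutrient stress genes with 50 UMIs, 4 were higher, among them Mt1 and Mt2, by 4.28- and 4.68-fold. From the same list Tsc22d3, Txnip and Ddit4 were lower, and its median was -0.09. Of 30 immediate early and heat shock genes with 50 UMIs, Myc and Maff were higher, by 2.98- and 2.85-fold. Zfp36l1, Hspa1a and Hspa1b of that list were lower, and its median was 0.09.

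Among the genes lower than in the Wfdc18 set were regulators and fluid secretion genes. The rule allowed fewer than 3 Wfdc18 UMIs in the set, and the Wfdc18 set had 3 or more. Genes that go with Wfdc18 are lower by that choice, so the lower genes are given as a description. Of 10 acinar genes with 50 UMIs 7 were lower, of 6 such intercalated duct genes Esp4 and Esp18 were lower, and of 29 gland transcription factor genes with 50 UMIs 4 were lower and 1 was higher. Ano1, the calcium-activated chloride channel gene, and the water channel gene Aqp5 had 0 UMIs in the 80 cells, with 357 and 106 in the Wfdc18 set. The transcription factor genes Foxc1, Barx2 and Elf5 were 4.17-, 6.82- and 22.1-fold lower, and Etv1 had 0 and 73 UMIs. The secreted inhibitor gene Wfdc12 was 32.7-fold lower (23.2 to 47.5). Esp4 had 0 UMIs in the set and 181 in the Wfdc18 set, and Car6, Prol1, Scgb1b27, Mucl2, Pip and Scgb2b26 were 55.3- to 103-fold lower. Single cells of the Wfdc18 set held 8741 of its 26071 Prol1 UMIs and 2921 of its 12473 Car6 UMIs. Of 20 tight junction genes with 50 UMIs, 0 were higher and 1 was lower, namely Cgn, the cingulin gene.

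Against the KO kallikrein set, 106 of 2649 genes were higher (4.0%) and 43 lower (1.62%), but TMM scaling gave 57 and 77, and the total without mitochondrial, Smgc and kallikrein UMIs 61 and 72. Kallikreins take a large part of the UMIs in those cells, so the balance of the counts rests on the scaling. Ctsl was 8.75-fold higher (7.25 to 10.6), the interferon-induced membrane protein gene Ifitm3 16.0-fold (10.8 to 24.2), S100a6 11.7-fold (9.61 to 14.3) and Ly6d 12.6-fold (8.15 to 19.8). Tnfrsf12a, the receptor gene for TWEAK, was 11.3-fold higher (8.02 to 16.0), and the chemokine gene Cxcl1 12.3-fold, with 23 of its 62 UMIs in 1 cell. Of 19 duct and gland transcription factor genes with 50 UMIs, 4 were higher, namely Foxi1, Sox4, Hes1 and Pax9, and none was lower. Among granular tubule genes outside the rule, Egf and Crisp3 were lower. The rule held kallikrein UMIs under 8% in the set, and the kallikrein set had 8% or more. These lower genes are therefore given as a description. The epidermal growth factor gene Egf was 10.7-fold lower (6.62 to 18.4), and Crisp3 stood at 3027 CPM in the set and 29339 CPM in the kallikrein set.

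**Figure D5:**
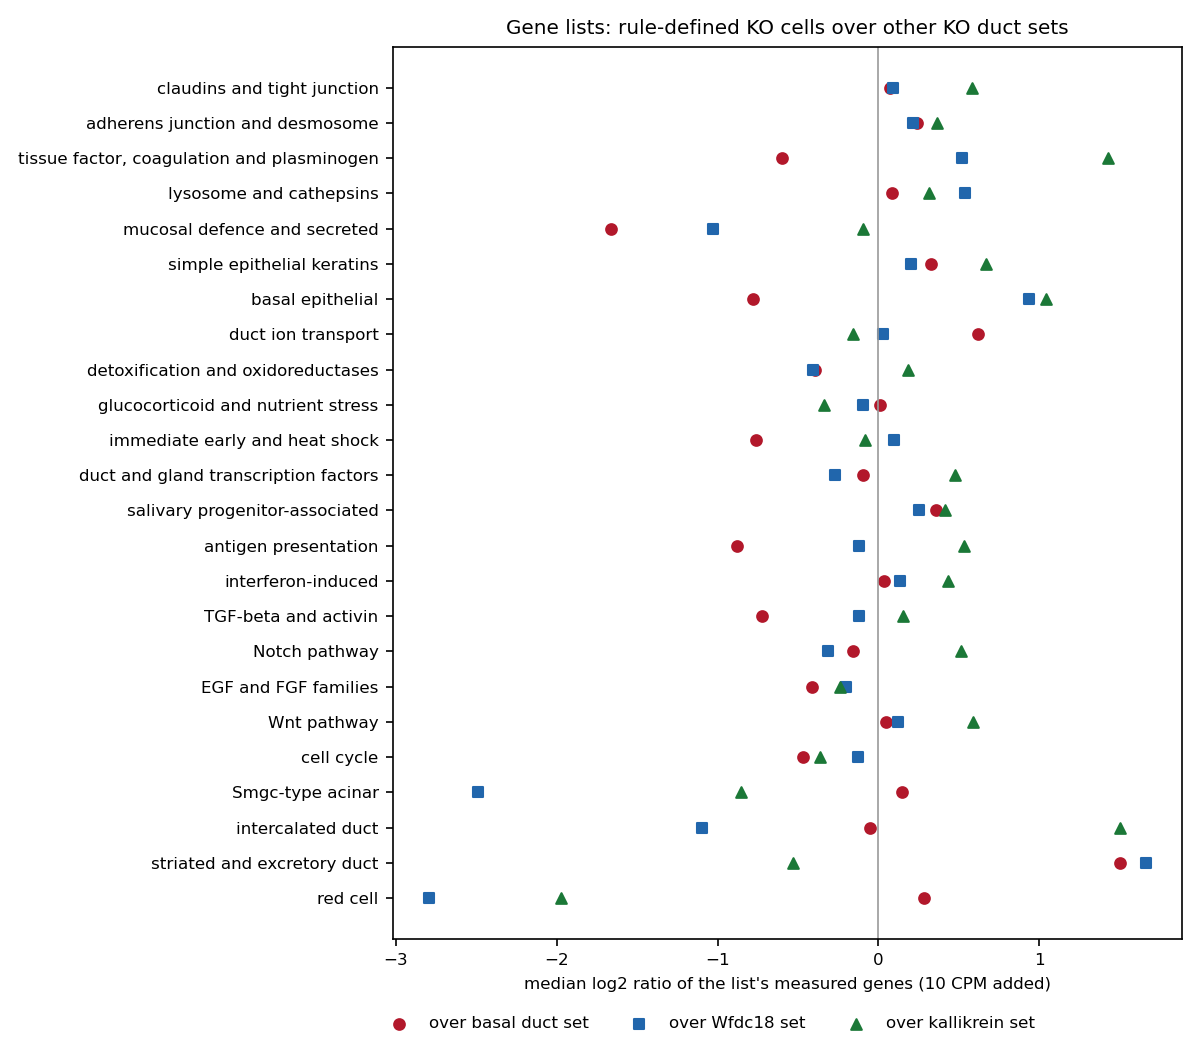
Median log2 ratio (horizontal axis, 10 CPM added) of each gene list with at least 3 measured genes, for the rule-defined KO cells over the KO basal duct set (red circles), Wfdc18 set (blue squares) and kallikrein set (green triangles). Striated and excretory duct genes were at 1.5 over the basal duct set, 1.66 over the Wfdc18 set and -0.53 over the kallikrein set.

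Few genes passed the size rule between the WT cells of the set and WT basal duct cells. Of 3705 genes, 4 were higher (0.108%) and 9 lower (0.243%). None of the 18 basal epithelial genes with 50 UMIs passed in either direction, which is near those shares and is no result about that list. The WT cells of the set hold 73638 UMIs, so a gene with few UMIs could hardly pass as lower. Krt15 stood at 516 CPM in the set and 342 CPM in WT basal duct cells, and Ptn at 1195 and 806 CPM. The higher genes were Nupr1, a stress-induced chromatin protein gene, at 4481 and 1453 CPM, Fxyd2 at 2037 and 730 CPM, the coactivator gene Ppargc1a at 733 and 229 CPM, and the glucose transporter gene Slc2a1, with 15 of its 23 UMIs in 1 cell. Ccnd2, the cyclin D2 gene, was lower, with 3 UMIs in the set. The lower genes also included Ankrd11, Eif3c and Tmem176b, and 4 haemoglobin genes. Fxyd2 was thus higher than in basal duct cells in the set of both libraries, by 3.1-fold in KO and 2.79-fold (2.34 to 3.31) in WT. In WT, however, 26 of its 150 UMIs were in 1 cell. The 16 WT cells of cluster 2 held 74 of them, at 1470 CPM, beside the 730 CPM of basal duct cells.

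Against all other WT cells, 93 of 8265 genes were higher (1.13%) and 30 lower (0.363%). Of 25 measured basal epithelial genes, 23 with 50 UMIs, Krt15, Sfn, Dapl1, Ptn and Igfbp5 were higher and none was lower, with a median of 0.86 beside -0.17 over all genes. In the KO library the same list had 0 higher and 0 lower of 19 measured genes, 13 with 50 UMIs, against the other KO cells, with a median of 0.61 beside -0.11 over all genes and 4 of the 19 below 0. The difference between those counts was not tested. Krt7, Epcam, Tgif1, Gadd45a, Myc and Maff were also higher in the WT cells, by 2.51- to 4.91-fold. Tgif1 stood at 685 CPM in KO and 679 CPM in WT cells of the set, and Gadd45a at 392 and 367 CPM.

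Against the WT Wfdc18 set, 247 of 4533 genes were higher (5.45%) and 51 lower (1.13%). The leading higher genes were Krt15, at 516 CPM in the set and 9.12 CPM in the Wfdc18 set, and Ptn, S100a6, Dcn, Ly6d and Ucma, which were 24.4- to 35.2-fold higher. S100a6 was also higher than in the Wfdc18 set in the KO library. Car2, a carbonic anhydrase gene, and Esp4 had 0 UMIs in the WT cells of the set and 1097 and 1021 in the WT Wfdc18 set. By their counting intervals they were at least 7.97- and 7.42-fold lower. The Wfdc18 clause of the rule separates these sets too, so the lower genes are given as a description. The WT cells number 23, so a gene absent there may have been missed at this depth.

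The simple epithelial keratins Krt8 and Krt18 were detected in nearly all cells of the set. Krt18 was detected in all 80 KO and all 23 WT cells, at 6181 and 4834 CPM, with medians of 11.5 and 10 UMIs per cell. Krt8 stood at 2791 CPM in KO and 2309 CPM in WT. Krt7 stood at 458 CPM in KO and 1127 CPM in WT, 2.46-fold lower in KO with an interval of 1.81 to 3.33 that did not lie wholly beyond 2-fold. Krt19, a keratin of larger ducts, had 0 UMIs in all 103 cells. The cell cycle genes Mki67, Top2a and Cdk1 had 0 UMIs in the KO cells, and 2 WT cells of the set lay in cluster 20, led by Pclaf, Ube2c and Cdc20.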

How the data were processed

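Whole submandibular glands of p63 KO and p63 WT mice were profiled as 1 library each on the 10x platform. The authors deposited raw UMI counts per Ensembl gene and cell barcode. Per the submitters' processing notes, the build was mm10 and the tools were Seurat 3.1.2, Cell Ranger 2.1.0 and bcl2fastq 2.19.1, with no role given for each. Of 27998 gene IDs, 27645 had a symbol.

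Cells were kept when they had 200 genes or more and a mitochondrial share below 20%. UMIs were summed per cell set and library and scaled to CPM. Log2 ratios had 10 CPM added. A gene passed the size rule with at least 50 UMIs in both sides together and a 95% exact conditional interval of its ratio wholly beyond 2-fold. The 27 genes of the rule were left out of these counts. With 1 library per genotype no replicate test was run. The 36 gene lists held 716 genes, counted where at least 10 UMIs were present. Named genes were the 10 highest and 10 lowest ratios past the size rule, or 6 and 6 against each duct set, plus list members past it or with the most UMIs. The other genes named, those of the cluster descriptions, were chosen after their values were seen. Some genes that met these criteria are not reported here. The cells and lists were chosen with earlier results of these data known. Clusters came from Leiden at resolution 1 on 30 components, 15 neighbours and 2000 variable genes without the rule's genes. Cells marked by scrublet were kept, and leaving them out was an alternative. The counting was run on simulated counts with known folds. These held counting error only and not the spread between cells that the data show, so that run does not test the intervals against it. Python 3.11.15, numpy 2.4.6, scipy 1.17.1, pandas 2.3.3, scanpy 1.11.5, leidenalg 0.10.2, matplotlib 3.10.9, R 4.3.3 and edgeR 4.0.16 (TMM factors only) were used.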

Additional observations from a re-analysis of the deposited data

How the results depend on the processing

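No paired analysis was possible because each genotype had 1 library. For the same reason leaving out a library was not done, and intervals cover counting error only. The 80 KO cells hold 211769 UMIs and the 23 WT cells 73638, and 696 genes reached 50 UMIs in both together.

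The KO share of the set was 2.60% with no cell filter, 1.80% under a stricter cell filter (500 genes, mitochondrial share below 10%), 7.72% with at least 2 markers, 0.702% with at least 4, 11.6% with no exclusion clauses and 1.73% after thinning. The WT share was 3.25% with at least 2 markers, 0.601% with at least 4 and 21.3% with no exclusion clauses. The number of genes past the size rule between KO and WT cells, 31 as reported, was 18 under the stricter cell filter (7 higher and 11 lower, beside 17 and 14), 9 with at least 4 markers (3 and 6), 11 after thinning, 58 with a minimum of 20 UMIs and 94 with none. Without the cells that hold a Foxi1 UMI, an alternative chosen after seeing the data, it was 27. Against the other KO cells, 184 as reported, it was 97 with at least 4 markers, 51 higher and 46 lower, and 110 after thinning. The stricter filter gave 55 higher and 80 lower there. Against the KO basal duct set, 59 as reported, it was 7 under the stricter filter (1 higher and 6 lower, beside 25 and 34), 12 with at least 4 markers (0 and 12), 25 after thinning, 94 with a minimum of 20 UMIs and 117 with none. Against the KO Wfdc18 set, 127 as reported, it was 59 after thinning (13 higher and 46 lower, beside 55 and 72) and 221 with no minimum (149 and 72). The split there turned to 66 and 43 under the stricter filter and to 53 and 36 with at least 4 markers. Against the KO kallikrein set, 149 as reported, it was 66 after thinning and 311 with no minimum.

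TMM scaling shifted the median log2 ratio of all tested genes against the Wfdc18 set to -0.15 in place of 0.05, against the kallikrein set to -0.12 in place of 0.14, and against the other KO cells to -0.14 in place of -0.02. Signs turned for Iapp against the other KO cells, at -0.19 under the stricter filter and -0.91 with at least 4 markers, for Trp53i11 at -0.35 with at least 4 markers, and for Gpx3 against the basal duct set at 0.49 under the stricter filter. Foxi1 against the other KO cells was at -2.51 without the cells that hold it, by construction. Of 76 named genes, 34 were no longer past the size rule with at least 4 markers, 34 under the stricter filter and 34 after thinning, and 0 under TMM. Fewer cells or UMIs enter under each of those 3 settings, and the part of this or of any other cause was not tested.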
